A study of Homo sapiens with 4 samples.

Results

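The integrated stress response kinases and feedback genes described here are 10 human genes: the 4 kinases of the translation factor eIF2 alpha (EIF2AK1, EIF2AK2, EIF2AK3 and EIF2AK4), the phosphatase subunits PPP1R15A and PPP1R15B, the endoplasmic reticulum stress sensor ERN1, and TRIB3, CHAC1 and NUPR1, which are induced through ATF4 and CHOP. They were chosen by name and role, with earlier results of these data known. All 10 were measured, of 18417 genes with a probe set of their own. Each was read by 1 probe set, so no choice between probe sets was needed. Expression was measured in MiaPaCa2, an established human pancreatic carcinoma line, on 4 Human Gene 1.0 ST arrays. The groups were cells given LY101-4B at 50 µM for 24 h, which the series presents as an inhibitor of E2F transcription factors, and cells given vehicle for 24 h, with 2 arrays each. The series design calls the 2 samples of a group biological replicates. A protocol text attached to the same samples names LY101-4D at 25 µM instead; the titles, agent labels and design were followed.

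In the integrated stress response, any of 4 kinases phosphorylates eIF2 alpha, which curbs general protein synthesis while the mRNA of the transcription factor ATF4 is translated more. The kinases read different stresses: EIF2AK1 (HRI) haem deficiency and mitochondrial stress, EIF2AK2 (PKR) double-stranded RNA, EIF2AK3 (PERK) unfolded protein in the endoplasmic reticulum, and EIF2AK4 (GCN2) amino acid shortage. ATF4 and its partner CHOP, encoded by DDIT3, then induce genes that feed back on the response, among them PPP1R15A (GADD34), which brings protein phosphatase 1 to eIF2 alpha. The arrays measured transcripts, and neither phosphorylation of eIF2 alpha nor kinase activity was measured.

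Promoter sequences were available for 8 of the 10 genes in the RefSeq promoter table of build GRCh38.p14, which covers 250 bases before to 50 bases after a gene's start. Both strands were searched for 3 motifs: TGATGNAA, the core of the composite element bound by ATF4 and C/EBP factors, TGACGTCA, the cyclic AMP response element, and the consensus of the endoplasmic reticulum stress element. No motif hit overlapped another. The following 3 stretches, all upstream of the start site, are shown because they hold the matches in genes that rose with LY101-4B; capitals mark the motif.
PPP1R15A (chr19:48872323-48872410, plus strand): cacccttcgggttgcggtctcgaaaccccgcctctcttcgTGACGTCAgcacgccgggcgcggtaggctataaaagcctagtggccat
PPP1R15B (chr1:204411997-204412067, minus strand): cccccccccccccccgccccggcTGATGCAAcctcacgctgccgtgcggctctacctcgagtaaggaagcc
CHAC1 (chr15:40953222-40953309, plus strand): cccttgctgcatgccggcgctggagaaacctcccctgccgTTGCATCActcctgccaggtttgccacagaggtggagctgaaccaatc
The match of CHAC1 lies on the strand opposite to the gene, 209 bases upstream of the start, and that of PPP1R15B on the gene's strand, 227 bases upstream. The palindromic element of PPP1R15A begins 58 bases upstream. Of the 35116 windows in the table, 3.62% held the composite core, which matched in 2 of the 8 genes. The cyclic AMP response element was held by 1.85% and matched in 1 of the 8. The endoplasmic reticulum stress element was held by 0.0769% and matched in 0 of the 8. EIF2AK3, ERN1 and TRIB3 also rose but held no match to any of the motifs, and neither did EIF2AK2 and EIF2AK4. A match is a description of letters, and binding was not measured.

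Of the 10 genes, 7 rose with LY101-4B, 0 fell and 3 did not pass. These calls are from limma fitted to all 21214 gene-annotated probe sets, with 2-sided p-values adjusted by the Benjamini-Hochberg method and called under 0.05. Over all of these probe sets 9.1% were called higher and 10.5% lower, 19.6% in either direction. A rise of at least 2-fold was called for 5 of the 10 genes, beside 1.59% of all probe sets. The rises were those of 1 of the 4 kinases, both phosphatase subunits, ERN1 and all 3 feedback genes. The median difference of the 10 genes was 1.03 log2 units, beside 0.00 over all 18417 genes. Because the genes were chosen with earlier results known, these shares describe them and are no independent evidence. The arrays of the groups did not overlap for 9 of the 10 genes, as for 58% of all tested probe sets, so non-overlap says little by itself. In RNA from a whole culture, a change in every cell cannot be told apart from a larger change in some cells.

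**Figure D1:**
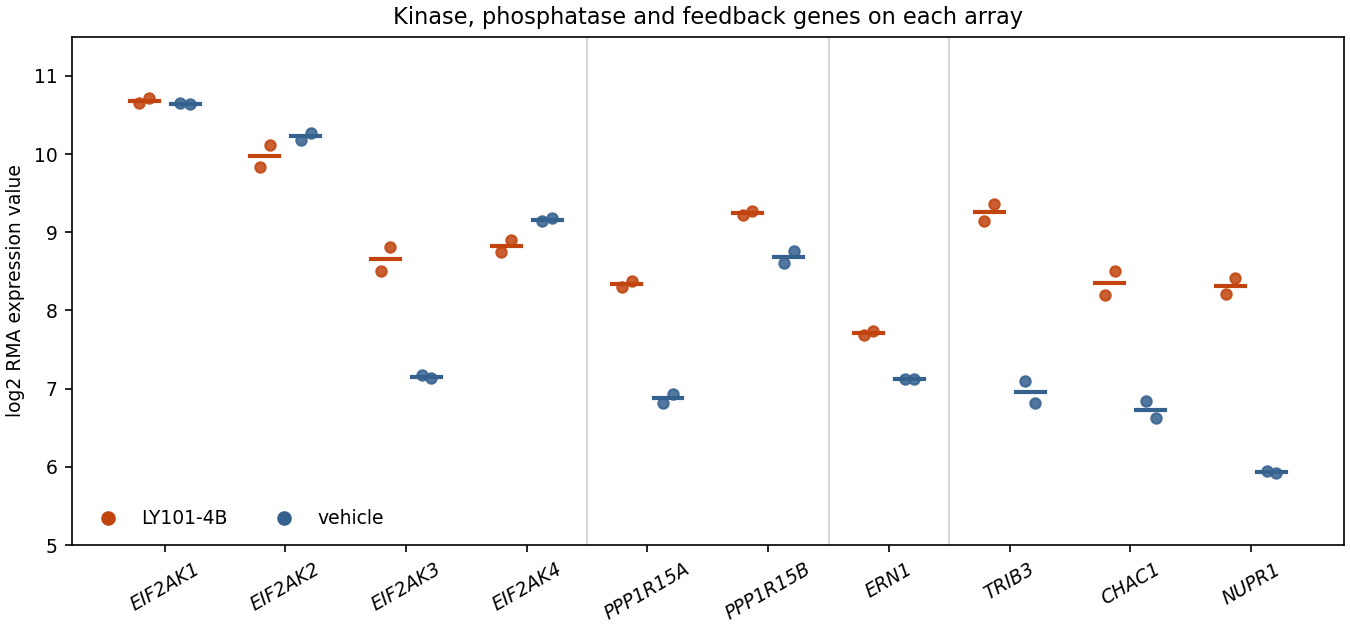
Log2 RMA expression values (vertical axis) of the 10 genes (horizontal axis) on each array, LY101-4B in orange on the left and vehicle in blue on the right of each gene; points are arrays and bars are means of 2. The orange points stand clear above the blue ones for EIF2AK3, PPP1R15A, TRIB3, CHAC1 and NUPR1, and lie close to them for EIF2AK1.

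Among the kinases, EIF2AK3, which encodes PERK, was the one called. Its probe set (8053668) read 8.50 and 8.81 log2 units on the LY101-4B arrays, against 7.17 and 7.14 on the vehicle arrays. Both treated arrays lay more than 1 log2 unit above both vehicle arrays, and the treated pair was the more spread. The difference was 1.50 ± 0.12 log2 units (moderated standard error, n = 2 each), a 2.83-fold rise with a limma adjusted p of 0.0016. By size of rise it stood at place 104 of 18417 genes.

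EIF2AK4, the amino acid sensor GCN2 (probe set 7982620), read 8.75 and 8.90 with LY101-4B, against 9.14 and 9.18 with vehicle. Both treated arrays were below both vehicle arrays. The difference of -0.33 ± 0.10 log2 units did not pass (limma adjusted p 0.0631), although its unadjusted 95% interval, from -0.57 to -0.10, lay below 0. This gene was at the border of the threshold: it passed with median centring (adjusted p 0.0434), with the brighter 50% of probe sets (0.0197), with an intensity trend (0.0193) and without LY101-4B replicate 2 (0.0462), and its adjusted p over the alternatives ranged up to 0.311.

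EIF2AK2, the double-stranded RNA sensor PKR (probe set 8051501), read 9.84 and 10.12 with LY101-4B, against 10.19 and 10.27 with vehicle. The treated arrays were lower, but the nearer one by only 0.06 log2 units. The difference of -0.25 ± 0.12 log2 units did not pass (limma adjusted p 0.226; 95% interval -0.55 to 0.05).

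EIF2AK1, the haem-regulated kinase HRI (probe set 8138045), read 10.65 and 10.72 with LY101-4B, against 10.65 and 10.63 with vehicle. Its groups overlapped. The difference was 0.04 ± 0.09 log2 units (limma adjusted p 0.804), with a 95% interval of -0.17 to 0.25, and it changed sign to -0.02 with arrays centred on their medians. The interval of EIF2AK3, from 1.19 to 1.81, lay above those of the other 3 kinases. The difference between kinases in their response was not itself tested.

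**Figure D2:**
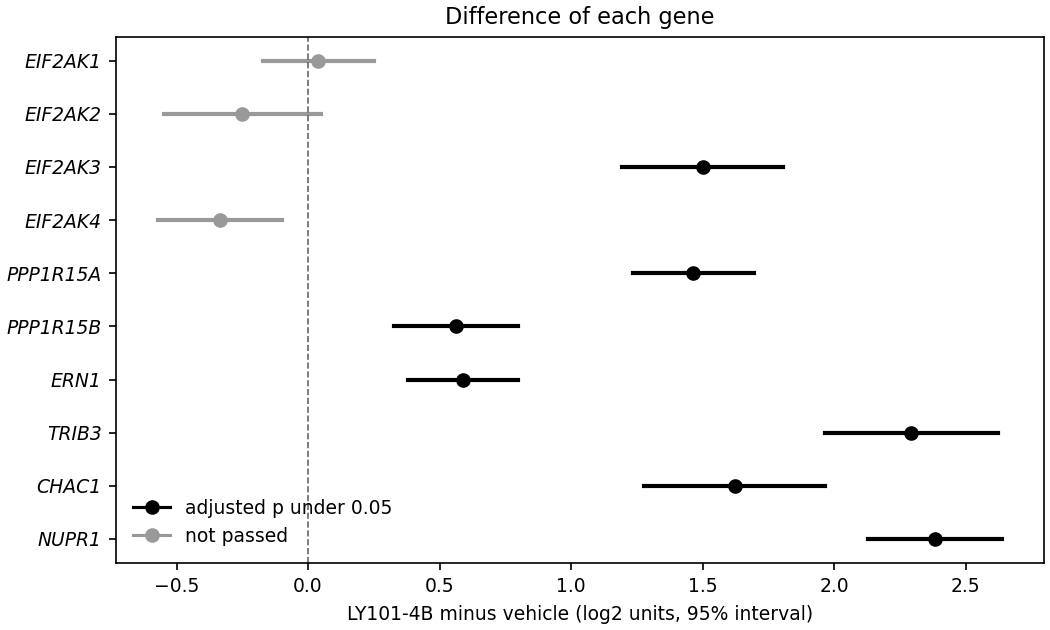
Difference of LY101-4B minus vehicle in log2 units (horizontal axis) for each gene, with the 95% interval of the limma fit; black marks genes with an adjusted p under 0.05 and grey those that did not pass. The intervals of NUPR1 and TRIB3 lie farthest to the right, and EIF2AK4, EIF2AK2 and EIF2AK1 are the 3 grey genes.

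Both regulatory subunits that direct protein phosphatase 1 to eIF2 alpha rose. PPP1R15A, the stress-induced subunit GADD34 (probe set 8030128), read 8.31 and 8.38 with LY101-4B, against 6.82 and 6.94 with vehicle. The arrays within each group were close, and the gap between the groups was 1.37 log2 units. The difference was 1.46 ± 0.09 log2 units, or 2.76-fold (limma adjusted p 0.0009; place 111 of 18417 by rise).

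PPP1R15B, the constitutive subunit CReP (probe set 7923659), read 9.22 and 9.27 with LY101-4B, against 8.61 and 8.76 with vehicle. The groups were apart by 0.46 log2 units, a smaller distance than for PPP1R15A. It rose 1.48-fold, by 0.56 ± 0.10 log2 units (limma adjusted p 0.0128). The threshold was missed without vehicle replicate 1 (0.49 log2 units) and without vehicle replicate 2 (0.64 log2 units). In these fits a gene's own spread comes from the LY101-4B pair alone.

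Of the 3 catalytic subunits of protein phosphatase 1, 0 rose and 1 fell. PPP1CC read 11.61 and 11.74 with LY101-4B, against 12.38 and 12.37 with vehicle, and fell 1.62-fold (-0.70 ± 0.09 log2 units, limma adjusted p 0.0058). PPP1CA differed by -0.16 log2 units (adjusted p 0.279) and PPP1CB by 0.03 (adjusted p 0.846; -0.03 with median centring), and neither passed.

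ERN1 encodes IRE1, a kinase and ribonuclease of the endoplasmic reticulum membrane that splices XBP1 mRNA and does not act on eIF2 alpha. Its probe set (8017555) read 7.68 and 7.74 with LY101-4B, against 7.13 and 7.12 with vehicle. Replicates were close in both groups, and the groups were apart. The rise was 1.50-fold (0.59 ± 0.08 log2 units, limma adjusted p 0.0075), and the threshold was missed without vehicle replicate 1 (adjusted p 0.0643) and without vehicle replicate 2 (0.0649), with differences of 0.59 and 0.58 log2 units. ERN2, the paralogue of gut epithelium, read 4.83 and 5.16 with LY101-4B, against 4.82 and 4.93 with vehicle. It did not pass (0.12 ± 0.13 log2 units, limma adjusted p 0.618). All of its values lay below the array medians of 5.88 to 5.97, so whether its transcript was detected is not known.

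The 3 feedback genes rose the most of the 10, with EIF2AK3 and PPP1R15A behind them; the intervals of CHAC1, EIF2AK3 and PPP1R15A overlap. NUPR1, a small chromatin-associated stress protein first described in the inflamed rat pancreas (probe set 8000574), read 8.21 and 8.42 with LY101-4B, against 5.94 and 5.93 with vehicle. The vehicle arrays were nearly equal and both treated arrays were more than 2 log2 units above them. The difference of 2.38 ± 0.10 log2 units put it at place 18 of 18417 genes by rise (limma adjusted p 0.0004). Its paralogue NUPR2 differed by 0.11 ± 0.09 log2 units and did not pass (adjusted p 0.463).

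TRIB3, a pseudokinase that binds ATF4 and CHOP and restrains them (probe set 8060344), read 9.15 and 9.36 with LY101-4B, against 7.10 and 6.82 with vehicle. Replicates of both groups were more spread than for PPP1R15A, yet the gap between groups was 2.05 log2 units. It rose 4.91-fold (2.29 ± 0.13 log2 units, limma adjusted p 0.0007; place 22 by rise). The other two Tribbles genes did not pass: TRIB1 differed by 0.21 ± 0.12 log2 units (adjusted p 0.299) and TRIB2 by -0.15 ± 0.09 (adjusted p 0.329).

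CHAC1, an enzyme that degrades glutathione (probe set 7982868), read 8.20 and 8.51 with LY101-4B, against 6.84 and 6.62 with vehicle. The groups were 1.36 log2 units apart at their nearest arrays. It rose 3.08-fold (1.62 ± 0.14 log2 units, limma adjusted p 0.0017; place 77 by rise). CHAC2, its paralogue with the same reaction, read 5.94 and 6.37 with LY101-4B, against 7.10 and 7.15 with vehicle, and fell 1.95-fold (-0.96 ± 0.15 log2 units, adjusted p 0.0102). The intervals of the pair, 1.28 to 1.97 for CHAC1 and -1.34 to -0.59 for CHAC2, lay on opposite sides of 0.

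**Figure D3:**
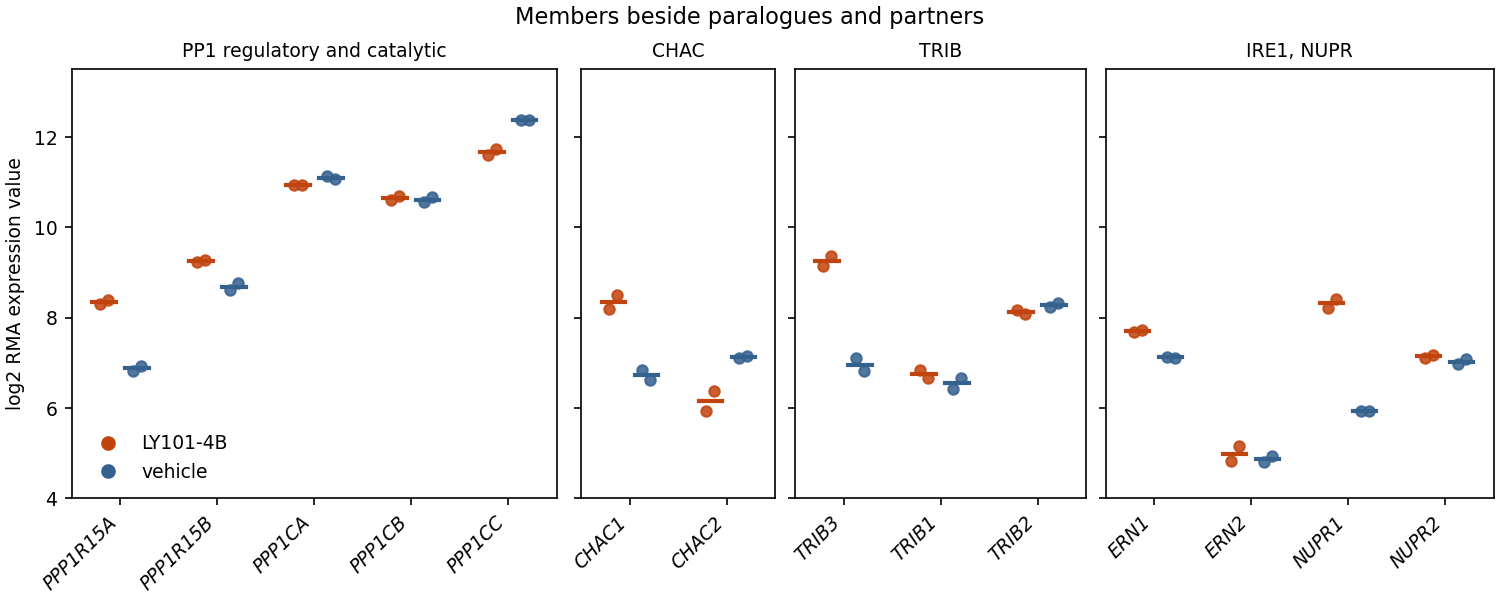
Log2 RMA expression values (vertical axis) on each array for the phosphatase subunits, the CHAC pair, the Tribbles genes, and the IRE1 and NUPR pairs; LY101-4B is orange and left, vehicle is blue and right, and bars are means of 2 arrays. CHAC1 and CHAC2 move in opposite directions, and PPP1CC lies lower with LY101-4B while PPP1R15A and PPP1R15B lie higher.

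No gene of the kinase substrate and its exchange factor was called higher. Of 11 measured genes of eIF2, its exchange factor eIF2B and associated factors, 0 rose, 3 fell and 8 did not pass. Their differences ran from -0.68 to 0.37 log2 units, with a median of -0.16. Over all probe sets 9.1% were called higher and 10.5% lower, so 0 higher of 11 says little by itself. EIF2B1 and EIF2B3, the alpha and gamma subunits of the exchange factor that phosphorylated eIF2 inhibits, fell by 0.68 and 0.62 log2 units (limma adjusted p 0.0095 and 0.0146). EIF2S1, which encodes eIF2 alpha itself, read 10.36 and 10.50 with LY101-4B, against 10.83 and 10.83 with vehicle, and fell by 0.40 log2 units (adjusted p 0.0343). With 1 vehicle array the differences stayed near these values, -0.64 and -0.73 for EIF2B1, -0.55 and -0.69 for EIF2B3 and -0.40 in both fits for EIF2S1. Fewer calls passed there, as over all probe sets: 0 of the list were called lower without vehicle replicate 2 and 1 without vehicle replicate 1, and 1 was with every row tested.

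Genes that act on the kinases were mixed: of 12 measured, 2 rose, 3 fell and 7 did not pass. Over all probe sets 9.1% were called higher and 10.5% lower. The 2 rises were those of endoplasmic reticulum proteins that restrain EIF2AK3. HSPA5, the chaperone BiP that holds PERK inactive, read 13.32 and 13.31 with LY101-4B, against 11.96 and 11.93 with vehicle (1.37 ± 0.08 log2 units, limma adjusted p 0.0008). DNAJC3, the co-chaperone P58IPK, described as an inhibitor of PKR and PERK, read 9.27 and 9.58 with LY101-4B, against 7.87 and 8.10 with vehicle (1.44 ± 0.14 log2 units, adjusted p 0.0024). OMA1, the mitochondrial protease upstream of HRI, fell by 0.47 log2 units (adjusted p 0.0284) and HSP90AA1, a chaperone of the eIF2 alpha kinases, by 0.48 (adjusted p 0.0187). The third fall was that of HSP90AB1 (-0.37, adjusted p 0.0315), named after its value was seen. The 3 falls missed the threshold without vehicle replicate 1, without vehicle replicate 2, without LY101-4B replicate 1 and over all rows, and that of HSP90AB1 also with cyclic loess (adjusted p 0.0589), while their differences with 1 of those arrays left out lay between -0.35 and -0.52.

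Between the kinases and the feedback genes stand the transcription factors, of which 7 of 8 rose and 0 fell. The list median was 1.01 log2 units, and 9.1% of all probe sets were called higher. DDIT3 (CHOP) read 10.81 and 10.95 with LY101-4B, against 7.29 and 7.35 with vehicle, and stood at place 4 of 18417 by rise. ATF3 rose by 1.83 log2 units, CEBPB by 1.34 and CEBPG by 1.01, with limma adjusted p from 0.0003 for DDIT3 to 0.0019 for CEBPG. ATF4, named after its value was seen, read 11.69 and 11.70 with LY101-4B, against 10.69 and 10.70 with vehicle. This was a rise of 1.01 ± 0.08 log2 units (limma adjusted p 0.0016). ATF4 had 2 single-symbol probe sets, and the brighter is given. Over the alternatives, among them the mean of its probe sets, its difference ran from 0.86 to 1.09 log2 units. QRICH1, also named afterwards, did not pass (-0.27, adjusted p 0.0824; 0.0246 with the brighter 50% of probe sets and 0.0271 with an intensity trend).

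The list of 22 targets of ATF4 and CHOP also holds CEBPG from the factors above. In it, 16 rose, 0 fell and 6 did not pass, beside 9.1% of all probe sets called higher. Its median was 1.33 log2 units. The largest rises were those of NIBAN1 (4.19 log2 units), GDF15 (4.01), SLC7A11, the cystine transporter (2.92), and CTH, the cystathionine-cleaving enzyme of cysteine synthesis (2.59), each with a limma adjusted p of 0.0003 or 0.0004. These targets and the factors above are partly those of earlier results on the same arrays and are no independent evidence of the direction.

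Downstream of IRE1 and in the parallel ATF6 arm, 14 of 17 measured genes rose and 0 fell. Their median was 0.86 log2 units, and 9.1% of all probe sets were called higher. DNAJB9, a co-chaperone induced through spliced XBP1, rose by 2.82 log2 units, HERPUD1, a factor of endoplasmic reticulum-associated degradation, by 2.34, EDEM1, which routes misfolded glycoproteins to degradation, by 1.51, and SDF2L1, a chaperone partner, by 1.39. Their limma adjusted p lay between 0.0004 and 0.0009. XBP1 splicing was not measured.

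EIF2AK2 is also an interferon-induced gene, and 13 other such genes were measured. Of these, 2 rose, 0 fell and 11 did not pass, with a median of 0.15 log2 units. Over all probe sets 9.1% were called higher and 10.5% lower. RSAD2 read 5.99 and 6.68 with LY101-4B, against 5.34 and 5.18 with vehicle (1.07 ± 0.22 log2 units, limma adjusted p 0.0248), and IFIT3 rose by 0.58 (adjusted p 0.0110). Without either vehicle array 0 of the 13 were called, and without LY101-4B replicate 1 it was 4.

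**Figure D4:**
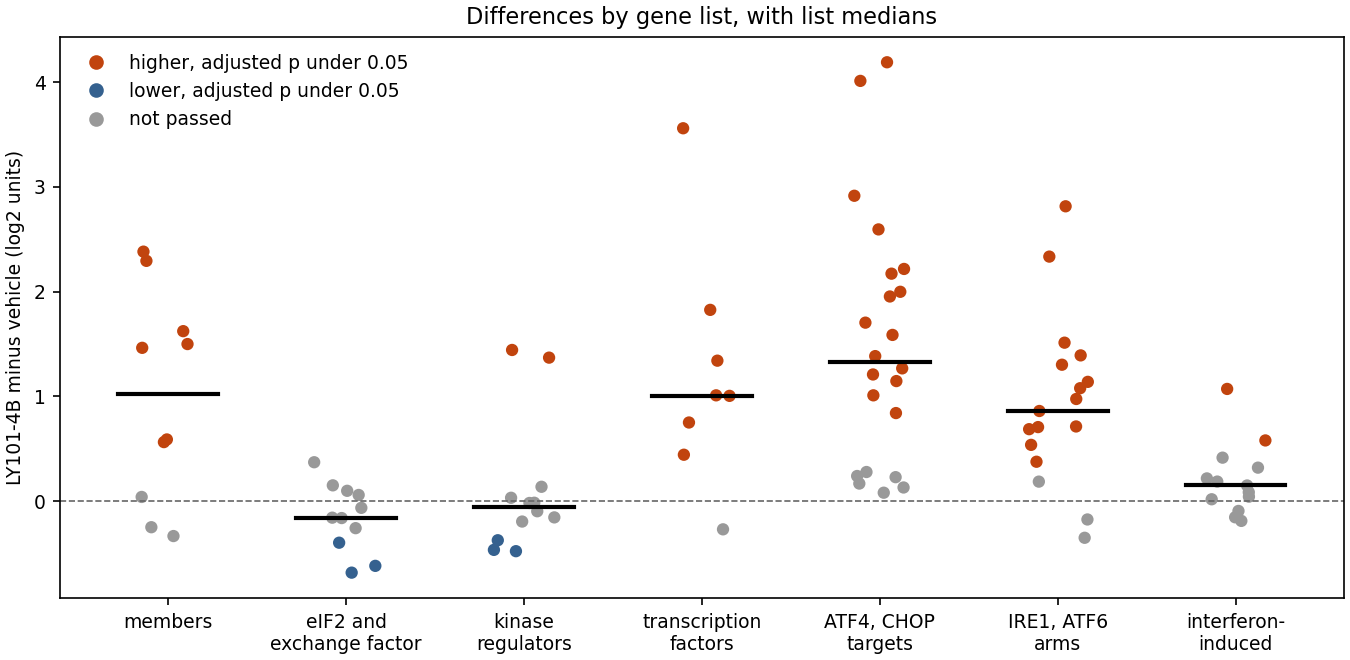
Difference of LY101-4B minus vehicle in log2 units (vertical axis) for the 10 genes (members) and for 6 lists of related genes; points are genes, orange called higher, blue called lower and grey not passed, and black bars are list medians. Transcription factors, ATF4 and CHOP targets, and genes of the IRE1 and ATF6 arms lie mostly above 0, while the lists of eIF2 and of kinase regulators straddle it.

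The arrays themselves had medians between 5.88 and 5.97 log2 units, and replicate arrays correlated at 0.994 for LY101-4B and 0.997 for vehicle over the tested probe sets. Differences between replicate arrays had a standard deviation of 0.223 log2 units for LY101-4B and 0.164 for vehicle. LY101-4B replicate 2 read above replicate 1 for each of the 10 genes, whether they rose or not. Markers of an epithelial line with mesenchymal features were mixed. KRT8, KRT18 and VIM were high, with vehicle means of 12.8, 12.9 and 12.6. KRT8 and KRT18 fell with LY101-4B (by 0.84 and 0.57 log2 units). EPCAM, also an epithelial marker, was low, below the array medians: it read 3.88 with LY101-4B and 3.94 with vehicle. CDH1 was listed as well but was not analysed here. Of 11 markers of blood, endothelial, fibroblast, acinar and islet cells, 1 rose, COL1A2 (10.4 with LY101-4B against 9.89 with vehicle), 0 fell, and 8 had vehicle means under 6. No detection calls were used, so whether dim probe sets were above background is not known.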

How the data were processed

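Values are those the authors deposited for 4 arrays: log2 expression of each probe set after RMA (background correction, quantile normalisation, probe summary), per the submitters' processing notes, which name no version or filter. RMA sets changes relative to the bulk of probe sets. Of 33297 rows, 21214 had a gene symbol in the platform annotation and were tested; 19460 had a single symbol and could be named. Gene symbols were checked against RefSeq (0 updated). The brightest single-symbol probe set stood for a gene.

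A model with treatment as its only term was fitted with limma 3.58.1 in R 4.3.3 (lmFit, eBayes). It had 2 residual degrees of freedom and 3.75 prior degrees of freedom. The fit was also run on simulated data that followed the model's own spread with independent errors. That run cannot tell whether these assumptions hold for the real arrays. With 2 against 2 arrays, an exact permutation test of 1 gene cannot go below 0.333, so none is given; array number limits the precision. The genes and lists were chosen with earlier results of these data known. Named genes are the 10, their paralogues and catalytic partners, and up to 4 called genes with the largest change per list; some list genes were not analysed here. Alternatives were cyclic loess, median centring, the brighter 50% of probe sets, all rows, an intensity trend, a robust prior, a replicate block, the mean of a gene's probe sets and leaving out each array.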

Additional observations from a re-analysis of the deposited data

How the results depend on the processing

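The 10 genes were recomputed under 12 alternatives each. Of these, 6 (cyclic loess, median centring and each array left out) can move a difference, and there 59 of 60 values kept their direction and 53 also their side of the threshold. The other 6 leave the differences as they are and change at most the spread or the number of tests; there 58 of 60 kept their side. EIF2AK3, PPP1R15A, TRIB3, CHAC1 and NUPR1 passed under all 12. The exceptions were PPP1R15B and ERN1 without either vehicle array, EIF2AK4 (4 alternatives, given above) and EIF2AK1, which turned to -0.0249 with median centring. Genes called higher among the 10 numbered 5 to 7 with 1 array left out, and genes called lower 0 to 1; 1 was called lower with median centring, the brighter 50% or an intensity trend, in each case EIF2AK4.

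Over all probe sets, 755 to 1899 were higher and 811 to 2467 lower with 1 array left out, and 1162 and 1271 over all rows, where more rows were tested. With 1 array left out, the eIF2 list had 0 to 3 lower, the kinase regulators 0 to 3 lower, the IRE1 and ATF6 list 0 to 1 lower and the interferon list 0 to 4 higher. Over all rows the numbers were 1 lower (eIF2), 0 lower (kinase regulators) and 1 higher (interferon). The eIF2 list had 1 higher with cyclic loess, the brighter 50%, an intensity trend or a replicate block, and the transcription factors 1 lower with the brighter 50% or the trend; the causes were not tested.

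The labels share only a replicate number: deviations of same-numbered arrays correlated at 0.116, with 2 pairs. With the number as a block, 2024 probe sets were higher and 2312 lower, and 7 of the 10 genes remained higher. Among 32 other named genes, 4 values changed sign, all near 0: PPP1CB (-0.0305 with median centring; -0.0208 without vehicle replicate 1 to 0.0890 without vehicle replicate 2) and ERN2 (-0.0481 to 0.282 with 1 array left out).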
